A study of Mus musculus with 66 samples.

Results

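Trp63, Sox2, Pitx1, Tfap2a, Tfap2c, Grhl3 and Sox15 are 7 transcription factors of squamous, that is flat and layered, epithelium. They were chosen by name, with earlier results of these data known, and are 7 of the 30452 genes in the deposited abundance table. The study followed the distal large bowel of mice through injury with dextran sodium sulfate (DSS), a detergent-like polymer that strips the colonic lining when given in drinking water. Stranded mRNA was sequenced from 66 pieces of mucosa of 19 wild-type C57Bl/6 mice, bought at 6 weeks of age. DSS was given at 3% for 6 days from day 0. The mice sampled on day 0 (4 mice) were uninjured, and 3 mice were sampled on each of days 3, 6, 9, 14 and 20, with no untreated mice at the later times. The mid-colon, the rectum and the anus were taken from each mouse, and on days 9, 14 and 20 also the squamous neo-epithelium, a layer the labels place in the colon. This gives 21 groups, in which the replicates are different mice and the sections of 1 mouse are paired by its number. The pieces are dissected mucosa with the muscle layer discarded, so each mixes epithelium with other cells, and a higher value in such a bulk sample cannot tell more cells of a type from more RNA per cell.

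Squamous epithelium grows from a basal layer on a basement membrane and moves upward as it differentiates, in skin into a cornified barrier. The anus carries such an epithelium and meets the single-layered glandular epithelium of the rectum at a sharp border. Trp63 (p63, of the p53 family) maintains the basal layer, the AP-2 factors Tfap2a and Tfap2c act in surface ectoderm and keratinocytes, and Grhl3, a grainyhead factor, drives barrier formation. Sox2 is an HMG-box factor of the foregut, where squamous esophagus forms, Sox15 is another HMG-box factor, and Pitx1 is a homeobox factor of the hindlimb and oral epithelium.

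Trp63 and Tfap2a are each read from more than 1 promoter, and their first coding bases tell the products apart. Trp63 (GRCm38 chr16:25683763-25892102, plus strand) makes TA products, with an amino-terminal activation domain, and ΔN products that lack it. The ΔN transcript start lies 118151 bases downstream of the TA transcript start. The 2 lines below give the coding bases that only ΔN has, in capitals (42 bases, chr16:25802060-25802101), and the last 42 of the 324 coding bases that only TA has, in capitals (chr16:25764255-25764296). Both run into the same next exon, in lower case.
Trp63-201 (ΔN): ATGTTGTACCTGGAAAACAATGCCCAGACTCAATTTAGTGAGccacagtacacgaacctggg
Trp63-208 (TA): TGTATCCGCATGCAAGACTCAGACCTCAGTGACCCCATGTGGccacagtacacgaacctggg
The 2 Tfap2a transcripts with values differ in the same way. Tfap2a (chr13:40715302-40738376, minus strand) has transcript starts 3380 bases apart, with first exons of 45 coding bases (chr13:40733670-40733714) and 27 coding bases (chr13:40730039-40730065), in capitals, before a shared exon.
Tfap2a-202: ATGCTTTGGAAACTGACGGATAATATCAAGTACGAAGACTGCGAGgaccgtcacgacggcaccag
Tfap2a-201: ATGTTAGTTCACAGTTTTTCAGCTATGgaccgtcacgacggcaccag
All 4 sequences read 5′ to 3′ from the GENCODE M21 transcripts on GRCm38.

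The other members lie at chr3:34650405-34652461 (Sox2, plus strand), chr13:55825051-55836192 (Pitx1, minus), chr2:172549593-172558622 (Tfap2c, plus), chr4:135541888-135573630 (Grhl3, minus) and chr11:69655314-69656727 (Sox15, plus), all on GRCm38. Levels are in TPM, a transcript abundance scaled for transcript length and library size, summed over a gene's transcripts, and so can be compared between genes. Differences are given on the log2(TPM + 1) scale, which understates the change of low genes.

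All 7 factors were higher in every anal and neo-epithelial sample than in any colonic one. In each case the lowest of the 28 anal and neo-epithelial samples lay above the highest of the 38 mid-colonic and rectal samples. The share of all genes that separate without overlap, here or in the comparisons below, is not given. For Trp63 these values were 18.1 and 3.06 TPM, for Sox15 12.7 and 1.36 TPM, and for Grhl3 15.0 and 6.04 TPM. They were 19.9 and 10.1 TPM for Pitx1, 2.14 and 1.22 TPM for Sox2, 1.52 and 0.717 TPM for Tfap2a, and 0.863 and 0.170 TPM for Tfap2c. In the colonic samples Sox2 was listed at 0 in 24, Tfap2c in 20, Sox15 in 19 and Trp63 in 18 of 38, while Pitx1, Tfap2a and Grhl3 were listed above 0 in all of them. When the 21 group means of a factor were ordered, the 9 anal and neo-epithelial groups came first for each factor, and almost all neighbouring groups overlapped in their samples. The exceptions were the step from the 9th to the 10th group, for all 7 factors, and for Tfap2c also the step from the 6th to the 7th, which set all 6 anal groups above the 3 neo-epithelial ones.

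**Figure D1:**
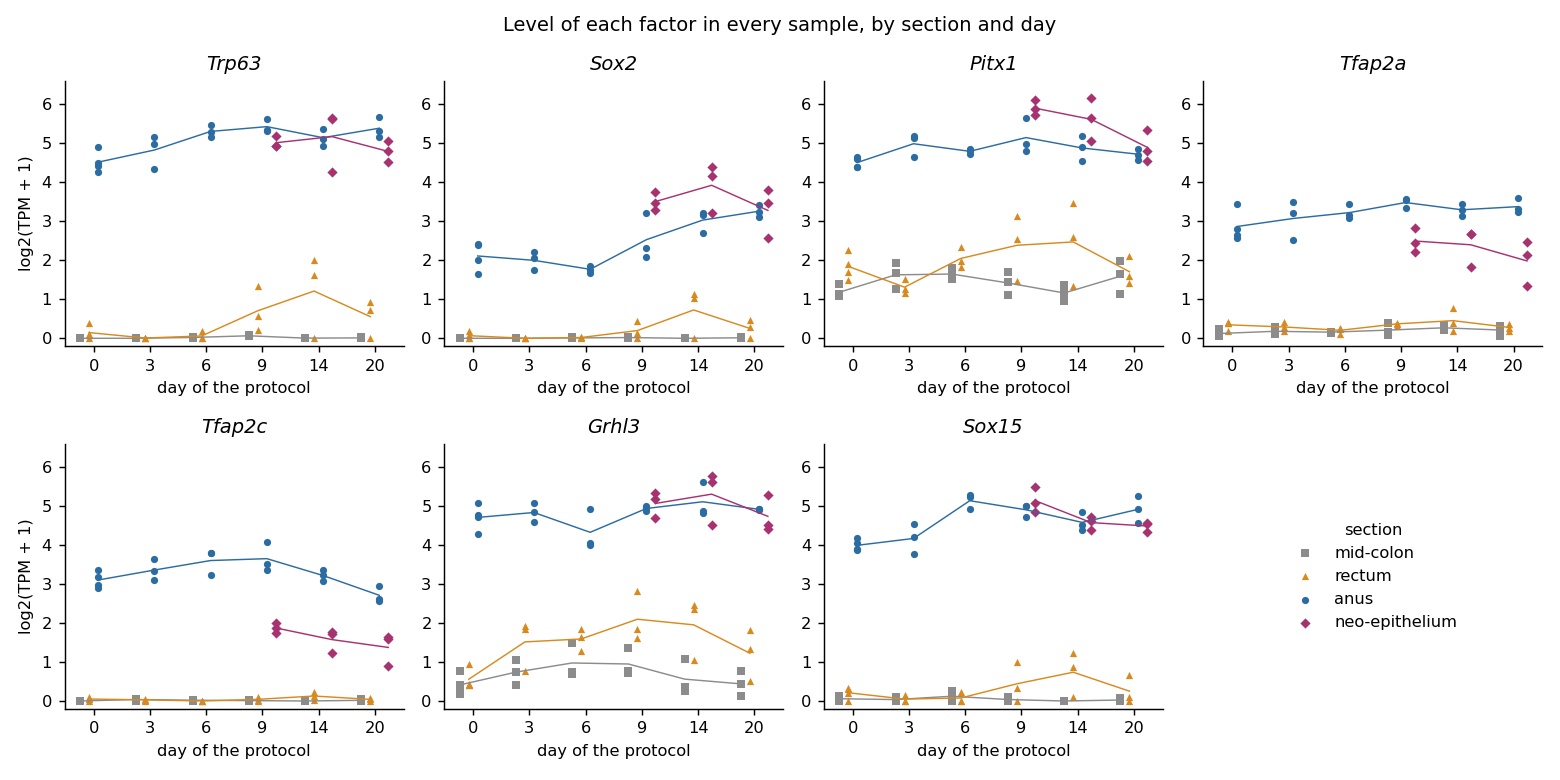
Log2(TPM + 1) of each of the 7 factors by section and day of the protocol, 1 point per sample, with lines through the group means. Every anal and neo-epithelial point of a factor lies above every point of the mid-colon and rectum, and Tfap2c is lower in the neo-epithelium than in the anus.

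Squamous markers set the anus and neo-epithelium apart from the colonic sections, but marker genes also showed mixed pieces. Colonocyte markers summed to 4.37 to 6609 TPM in the neo-epithelium and 24.5 to 5814 TPM in the anus. In the rectum they summed to 4752 to 19195 TPM. The squamous markers were the keratins Krt4, Krt5, Krt13 and Krt14 and the desmosome genes Dsc3 and Dsg3. All 6 reached 1 TPM in every anal and neo-epithelial sample. They summed to 7715 to 22200 TPM and 11472 to 25942 TPM, against 3.44 to 21.9 TPM in the mid-colon. The rectum ranged from 6.43 to 765 TPM, so some rectal pieces held squamous transcripts. Hair follicle and sebaceous gland markers summed to 89.1 to 871 TPM in the anus on days 9 to 20 and to 0.120 to 1.13 TPM in the neo-epithelium. Skeletal muscle markers summed to 1756 to 7378 TPM in those anal samples and to 0.784 to 9.73 TPM in the neo-epithelium. The files hold no read counts, so the depth behind each value is unknown. Between 11268 and 13789 genes reached 1 TPM per sample.

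In uninjured mice all 7 factors were higher in the anus than in the rectum. The 4 anal samples held 18.1, 21.5, 28.8 and 20.5 TPM of Trp63, and the 4 rectal samples 0.313, 0.0748, 0.0630 and 0 TPM. No factor's samples overlapped between the sections. For every member but Pitx1 all 4 rectal values lay below 1 TPM, so each was tested only because all 4 anal samples reached 1 TPM. For these members the filter fixed the lack of overlap, and the calls are no separate support for it. Trp63 differed by 4.37 ± 0.18 (log2, SE; 22.2 ± 4.61 TPM, SD, against 0.113 TPM, n = 4 and 4, limma with Benjamini-Hochberg adjustment, adjusted p = 9.70e-08). Grhl3 followed with 4.15 ± 0.21 (25.6 ± 5.74 against 0.492 TPM) and Sox15 with 3.78 ± 0.16 (15.0 ± 1.61 against 0.163 TPM). The AP-2 factors differed by 3.05 ± 0.15 for Tfap2c (7.67 ± 1.30 against 0.0358 TPM) and 2.52 ± 0.20 for Tfap2a (6.51 ± 2.24 against 0.274 TPM). Pitx1, the member with the highest rectal level, differed by 2.66 ± 0.19 (21.9 ± 2.22 against 2.66 ± 0.858 TPM), and Sox2 by 2.04 ± 0.19 (3.42 ± 1.04 against 0.0493 TPM). All 7 were called (highest adjusted p = 1.54e-05, for Sox2), where 25.9% of all 13158 tested genes were higher in the anus.

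Pitx1 was higher in the rectum than in the mid-colon of all 4 uninjured mice, but was not called. It was 1.20, 1.12, 1.65 and 1.14 TPM in the mid-colon and 2.27, 2.77, 3.81 and 1.81 TPM in the rectum of mice 1 to 4. The rectal values were all higher, but the difference of 0.66 ± 0.18 missed the threshold (limma, adjusted p = 0.0821) and passed it with the mouse as a block (adjusted p = 0.0488). Only Pitx1 reached 1 TPM in enough samples to be tested. No member was therefore called (1 at an unadjusted p under 0.05), against 1.79% of all genes, of which 84.7% were higher in the rectum, or 38.4% after TMM scaling. With TMM scaling Pitx1 differed by 0.51 and was not called, while the median of all genes went from 0.21 to -0.01.

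No member was called in the mid-colon after DSS. Only Pitx1 reached 1 TPM in enough samples to be tested. It was not called on day 3 (0.375% of all genes were), day 6 (14.9%), day 9 (43.4%), day 14 (4.36%) or day 20 (1.56%). It reached an unadjusted p under 0.05 on 1 of these days. This was day 6, at 2.09, 2.48 and 1.86 TPM, above all 4 uninjured values (log2 0.47, limma, adjusted p = 0.0801). With TMM scaling, which takes the median of all genes there from -0.24 to -0.06 and the share of calls that were higher from 33.1% to 51.8% (day 14: 58.4% to 47.4%), this became 0.60 (adjusted p = 0.0232).

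In the rectum Grhl3 was above its day 0 values on days 6, 9 and 14, and was the 1 member called there on any day. It was 0.334, 0.330, 0.945 and 0.359 TPM on day 0 and 2.63, 1.43 and 2.11 TPM on day 6. On day 9 it was 2.63, 6.04 and 2.07 TPM, and on day 14 it was 1.07, 4.49 and 4.12 TPM. None of these later samples overlapped with day 0. All 4 day 0 values lay below 1 TPM, so the gene was tested only on days when all 3 later samples reached 1 TPM. The filter thus fixed the lack of overlap on tested days, and the calls are no separate support for it. Without the filter the calls of days 6 and 9 held. The rise was 1.03 ± 0.20 on day 6 (limma, adjusted p = 0.0046; 11.5% of genes rose), 1.54 ± 0.29 on day 9 (adjusted p = 0.0022; 33.5% rose) and 1.40 ± 0.35 on day 14 (adjusted p = 0.0368; 6.31% rose). The day 14 call was lost in 6 of 7 fits with 1 mouse left out (mice 1, 2, 3, 4, 15 and 16, highest adjusted p = 0.148) and without the filter on low values (adjusted p = 0.0718). On day 3 (2.59, 2.82 and 0.704 TPM) and day 20 (2.53, 1.54 and 0.428 TPM) too few samples reached 1 TPM for a test. Pitx1, the 1 member tested on these days, was not called, also with TMM scaling, against 1.50% and 2.79% of genes that rose. On day 3 it was lower than on day 0, at 1.50 against 2.66 TPM (limma, unadjusted p under 0.05, not reached on day 20). Without mouse 7 on day 3 and without mouse 19 on day 20 Grhl3 was called (1.33, limma, adjusted p = 0.00921, and 1.02, adjusted p = 0.0228). In both cases the sample left out was the 1 below 1 TPM, so these calls follow from that choice.

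The summed squamous markers lay above the day 0 range in 0 of 3 rectal samples on day 6, 1 of 3 on day 9 and 2 of 3 on day 14. The sum was 11.9 to 107 TPM on day 0 and 8.31 to 34.3 TPM on day 6, with 0 to 0.133 TPM of Trp63 on that day. It reached 83.2 to 587 TPM on day 9 and 24.8, 765 and 465 TPM in mice 14, 15 and 16 on day 14. Neutrophil markers summed to 0.797 to 5.92 TPM on day 0, 362 to 3563 TPM on day 6 and 11102 to 13161 TPM on day 9. The part of either cell type in the Grhl3 values was not tested. Beside the squamous sum, Grhl3 had the same order over the 3 mice on day 14 (1.07, 4.12 and 4.49 TPM beside 24.8, 465 and 765 TPM) and on day 20 (0.428, 1.54 and 2.53 TPM beside 7.92, 266 and 427 TPM). On day 9 the order differed, with 6.04 TPM beside 97.4 TPM in mouse 12 and 2.63 TPM beside 587 TPM in mouse 11. TMM scaling took the share of rectal calls that were higher from 22.6% to 36.2% on day 3, from 23.7% to 48.4% on day 6 and from 62.7% to 49.5% on day 9. With it Grhl3 stayed called on days 6, 9 and 14.

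The other members were low in the rectum and uneven between mice. Trp63 was 1.53, 0.481 and 0.162 TPM on day 9, 0, 3.06 and 2.06 TPM on day 14, and 0.918, 0.654 and 0 TPM on day 20. Mice 14 and 19, with 0, also had the lowest squamous sums of their days (24.8 and 7.92 TPM). Sox2 reached 1.22 TPM and Sox15 reached 1.36 TPM, both in mouse 15. Pitx1 was 7.78, 1.77 and 4.88 TPM on day 9 and 1.53, 10.1 and 5.07 TPM on day 14, overlapping with day 0 and not called on any day. Without mouse 14 the day 14 differences of Trp63 (1.67, limma, adjusted p = 0.000523), Sox2 (1.02, adjusted p = 0.00172) and Pitx1 (1.19, adjusted p = 0.0158) passed. With all mice Pitx1 was tested (limma, adjusted p = 0.363), but Trp63 and Sox2 did not pass the filter. They entered the test only because mouse 14, at 0 for both, was left out, so their calls follow from that choice. Without mouse 12 that of Pitx1 on day 9 did (1.00, adjusted p = 0.0137). Whether the day 9 change differed between rectum and mid-colon was tested for Grhl3 (1.00 ± 0.38, limma, adjusted p = 0.163) and Pitx1 (0.30, adjusted p = 0.786), and neither was called (1 at an unadjusted p under 0.05, TMM scaling 0), against 6.55% of genes (89.3% of them higher in the rectum, 64.6% after TMM scaling).

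**Figure D2:**
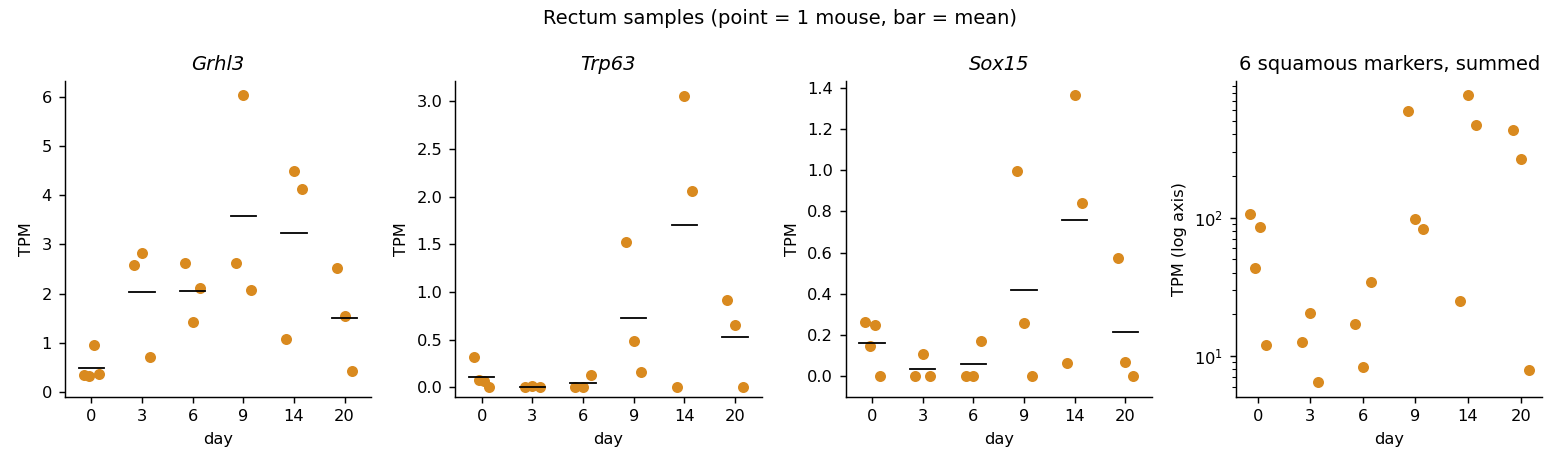
TPM of Grhl3, Trp63 and Sox15 and the sum of the 6 squamous markers (log axis) in the rectum by day, 1 point per mouse, with bars for the means of the 3 genes. Grhl3 lies above all day 0 values on days 6, 9 and 14, while Trp63, Sox15 and the marker sum are uneven between mice from day 9.

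In the anus Trp63 and Sox15 rose after injury. Trp63 went from 18.1, 21.5, 28.8 and 20.5 TPM to 34.9, 38.1 and 43.2 TPM on day 6 and 39.8, 38.6 and 48.6 TPM on day 9. Sox15 went from 13.5, 15.6, 17.0 and 13.8 TPM to 29.2, 37.7 and 36.3 TPM on day 6 and 30.9, 25.2 and 31.2 TPM on day 9. No samples overlapped. On day 6 Sox15 rose by 1.14 ± 0.17 (limma, adjusted p = 0.00328) and Trp63 by 0.79 ± 0.19 (adjusted p = 0.0262), where 8.64% of genes rose. On day 9 both rose by 0.91, with an SE of 0.17 for Sox15 (adjusted p = 0.0180) and 0.19 for Trp63 (adjusted p = 0.0327), where 1.46% of genes rose. The Sox15 rise of day 6 held with any 1 mouse left out. That of day 9 was lost without mouse 2, 11 or 13, and the Trp63 rises without mouse 2, 8, 9 or 10 on day 6 and mouse 2, 4, 11, 12 or 13 on day 9 (highest adjusted p = 0.144).

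Markers of other cells in the anal tissue moved at the same time. Colonocyte markers summed to 1336 to 5814 TPM on days 0 and 3 and to 24.5 to 62.7 TPM on days 6 and 9. Neutrophil markers summed to 346 to 1365 TPM and then to 946 to 3892 TPM. Only 2 to 4 of these markers reached 1 TPM per sample on days 0 and 3, and 5 to 6 on days 6 and 9. Their part in the rises was not tested. The squamous marker sum itself was 7715 to 14490 TPM on days 0 and 3 and 13054 to 21358 TPM on days 6 and 9.

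No member was called in the anus on day 3 (0.0220% of genes rose), day 14 (2.26%; 52.9% of calls were higher, 39.9% after TMM scaling) or day 20 (1.09%; 74.6% and 64.1%). By limma 1, 3 and 3 members had an unadjusted p under 0.05 on these days, and TMM scaling called 0. Sox2 was 8.36, 5.54 and 7.94 TPM on day 14 and 7.67, 9.69 and 8.49 TPM on day 20, above the 4 uninjured values of 4.33, 2.14, 4.21 and 3.00 TPM. Its differences of 0.92 and 1.15 missed the threshold (limma, adjusted p = 0.0955 and 0.0654) and passed it when all anal groups shared 1 fit (0.0290 and 0.0105). On day 20 Trp63 (0.87, adjusted p = 0.0817) and Sox15 (0.93, adjusted p = 0.0682) also lay above day 0 without overlap, and both passed in that shared fit (0.0143 and 0.00862). The shared fit also called Pitx1 on day 9 (0.64, adjusted p = 0.0445, against 0.154 with the 2 groups alone). Tfap2a, Tfap2c and Grhl3 were called on no day in either fit.

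The neo-epithelium held all 7 factors above the rectum of the same mouse, in 9 of 9 mice. Trp63 was 29.4, 35.7 and 29.4 TPM on day 9, 18.1, 48.3 and 49.0 TPM on day 14 and 27.1, 32.2 and 21.9 TPM on day 20, while the highest rectal value was 3.06 TPM. Over the 3 days it differed by 4.17 ± 0.26 (32.3 ± 10.6 against 0.985 ± 1.05 TPM, n = 9 and 9, limma, adjusted p = 2.35e-09). Sox15 differed by 4.26 ± 0.18 (26.5 ± 7.75 against 0.463 TPM). Pitx1 (46.5 ± 17.4 against 4.24 ± 3.04 TPM) and Grhl3 (33.7 ± 12.3 against 2.77 ± 1.80 TPM) each differed by 3.28. Sox2 differed by 3.18 ± 0.20 (11.6 ± 4.61 against 0.371 TPM) and Tfap2a by 1.93 ± 0.16 (4.12 ± 1.47 against 0.299 TPM). These 6 were called, where 20.9% of all genes were higher. All 9 rectal values of Tfap2a lay below 1 TPM, so it was tested only because all 9 neo-epithelial samples reached 1 TPM. Tfap2c (2.12 ± 0.660 against 0.0513 TPM) did not pass the filter, because 1 sample was below 1 TPM; without the filter it differed by 1.54 (adjusted p = 5.25e-08).

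Compared with the anus of the same mice, the neo-epithelium had more Sox2 and Pitx1, less Tfap2a and Tfap2c, and no called difference in Trp63, Grhl3 and Sox15. Of all genes tested, 40.1% were higher and 19.7% lower in the neo-epithelium. The median gene differed by 0.18, and by 0.07 with TMM scaling, which brought the share of calls that were higher from 67.0% to 55.9%.

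The 2 AP-2 factors were lower in the neo-epithelium than in the anus in every mouse. Tfap2c was 2.34, 3.02 and 2.67 TPM in the neo-epithelium on day 9, 1.34, 2.28 and 2.44 TPM on day 14, and 0.863, 2.00 and 2.12 TPM on day 20. In the anus it was 10.5, 15.8 and 9.25 TPM, then 9.19, 7.39 and 8.45 TPM, then 5.15, 6.74 and 4.90 TPM. The samples did not overlap, and the difference was -1.59 ± 0.13 (limma, adjusted p = 3.96e-08). Tfap2a was 4.12 ± 1.47 TPM against 9.51 ± 1.14 TPM, a difference of -1.09 ± 0.16 (adjusted p = 2.30e-05), and did not overlap either. The Tfap2a call held under every setting tried, and the Tfap2c call under every setting that tested it. With the filter of 5 TPM Tfap2c was not tested. Hair follicle and skeletal muscle markers, abundant in the anus and near 0 in the neo-epithelium, move with this contrast, and their part was not tested.

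Sox2 and Pitx1 were higher in the neo-epithelium in 7 of 9 mice. Sox2 was 8.77, 12.5 and 10.1 TPM on day 9, 8.28, 17.0 and 19.9 TPM on day 14, and 10.1, 13.0 and 4.91 TPM on day 20. The difference was 0.63 ± 0.22 (11.6 ± 4.61 against 7.01 ± 2.23 TPM, limma, adjusted p = 0.0206), and it was lost without mouse 11, 12, 15 or 16 (0.0505 to 0.0719). Pitx1 was 58.1, 67.9 and 51.7 TPM on day 9 against 30.8, 27.0 and 49.3 TPM in the anus, and 32.1, 49.2 and 70.2 TPM on day 14 against 35.8, 22.4 and 28.8 TPM. On day 20 it was 26.9, 39.7 and 22.2 TPM against 25.2, 28.2 and 23.0 TPM, and the samples overlapped. Its difference was 0.55 ± 0.17 (adjusted p = 0.00931), and it held without any 1 mouse. On day 14 alone neither Sox2 (0.89, adjusted p = 0.0776) nor Pitx1 (0.73, adjusted p = 0.105) passed, and on day 20 alone the differences were 0.02 and 0.18.

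Trp63 was lower in 7 of 9 mice (32.3 ± 10.6 against 39.5 ± 6.67 TPM), by -0.33 with a 95% interval of -0.69 to 0.03 (limma, adjusted p = 0.108). It was called with TMM scaling (-0.45, adjusted p = 0.0227) and without mouse 15 (adjusted p = 0.0425) or mouse 16 (0.0274). For Grhl3 the difference was 0.05 (interval -0.32 to 0.42, adjusted p = 0.827) and for Sox15 it was -0.07 (interval -0.33 to 0.20, adjusted p = 0.668). With either gene 5 of 9 mice were higher, and the intervals leave room for differences of up to those bounds.

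**Figure D3:**
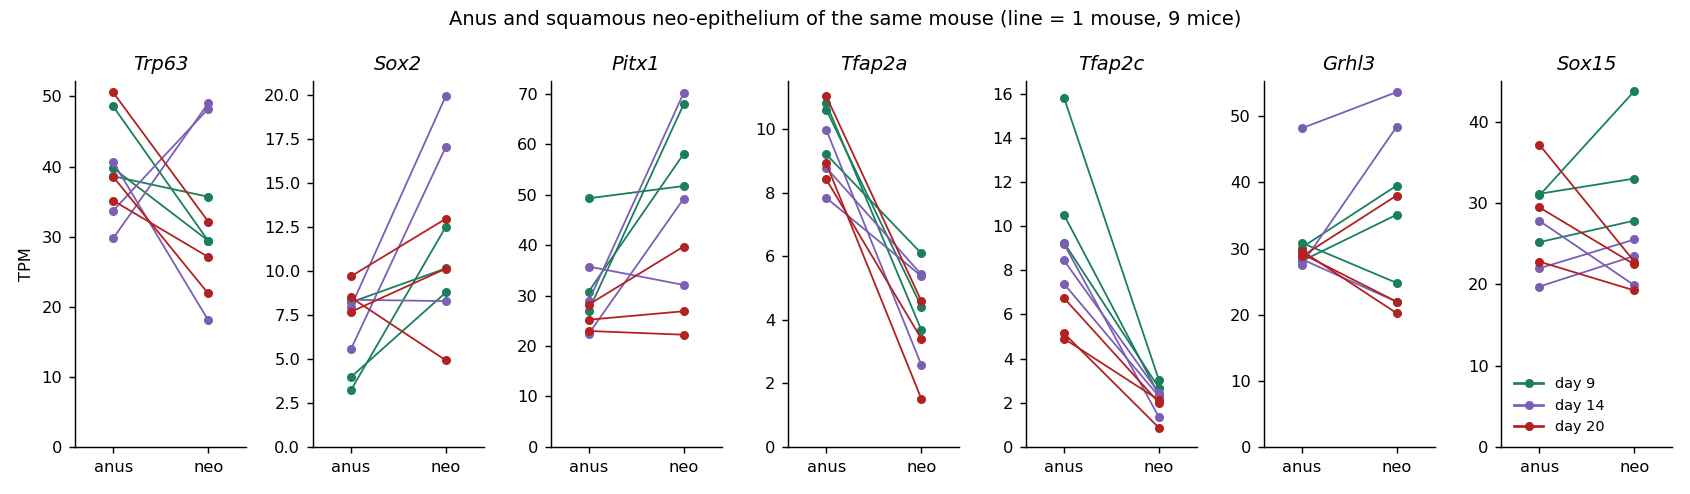
TPM of each factor in the anus and the neo-epithelium of the same mouse, joined by a line, for the 9 mice of days 9, 14 and 20. Tfap2a and Tfap2c are lower in the neo-epithelium in all 9 mice, and Sox2 and Pitx1 higher in 7.

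The factors' proportions to Trp63 restate these differences relative to 1 member. The log2 ratio to Trp63 in 1 sample was compared between neo-epithelium and anus of each mouse with an exact two-sided sign-flip permutation test over 9 mice, whose smallest possible p is 0.0039 (512 sign patterns). Relative to Trp63, Sox2 was higher by 0.96 ± 0.49 (SD) and Pitx1 by 0.88 ± 0.34 in 9 of 9 mice, and Tfap2a was lower by -0.77 ± 0.32 and Tfap2c by -1.26 ± 0.66 in 9 of 9. Each had an exact p of 0.00391 and an adjusted p of 0.00586 over 6 ratios. Grhl3 (0.38 ± 0.47, higher in 7 of 9, exact permutation adjusted p = 0.0656) and Sox15 (0.26 ± 0.47, 7 of 9, exact adjusted p = 0.133) did not pass, and without mouse 16 Grhl3 did (exact adjusted p = 0.0188). The ratios share Trp63 as denominator, so they are not 6 independent findings. Each is the factor's own log2 difference minus that of Trp63, so they are no separate support for the differences above. Trp63 was lower in the neo-epithelium in 7 of 9 mice, which raises every ratio there. In mice 14 and 19, where Sox2 and Pitx1 were below the anus, Trp63 was 18.1 against 40.6 and 21.9 against 38.5 TPM.

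**Figure D4:**
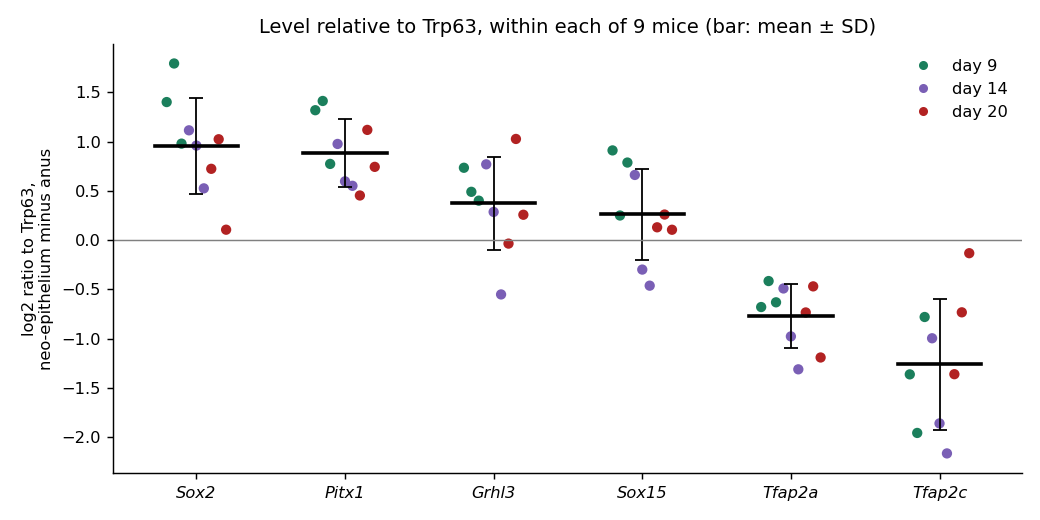
Log2 ratio of each factor to Trp63 in the neo-epithelium minus that in the anus, 1 point per mouse with the mean and SD. Sox2 and Pitx1 lie above 0, and Tfap2a and Tfap2c below 0, in all 9 mice.

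Within the neo-epithelium Pitx1 and Sox15 were lower on day 20 than on day 9. Pitx1 was 58.1, 67.9 and 51.7 TPM on day 9 and 26.9, 39.7 and 22.2 TPM on day 20 (59.2 ± 8.15 to 29.6 ± 9.06 TPM, n = 3 and 3, log2 -1.01 ± 0.23, limma, adjusted p = 0.0238). Sox15 was 43.8, 27.9 and 33.0 TPM and then 19.3, 22.5 and 22.8 TPM (-0.65 ± 0.19, adjusted p = 0.0497). Neither overlapped, and 16.1% of all genes were lower. Both calls were lost with TMM scaling (adjusted p = 0.0631 and 0.102; 38.6% of all calls were higher, 53.9% with TMM) and when mice were left out: Pitx1 without mouse 11, 12, 13 or 17, and Sox15 without any 1 of the 6 mice (highest adjusted p = 0.137). On day 14 against day 9 limma called no member (1 at an unadjusted p under 0.05, TMM scaling 0), where 16.8% of genes were called. Without mouse 14, whose neo-epithelium had the lowest Trp63 of all 9 (18.1 TPM), Trp63 (0.62, adjusted p = 0.0291) and Sox2 (0.77, adjusted p = 0.0355) were. In that sample colonocyte markers summed to 5884 TPM, against 483 and 1064 TPM in the other day 14 mice. They summed to 4.37 to 480 TPM on day 9 and 2527 to 6609 TPM on day 20, and fibroblast markers to 2052 to 3032 TPM and then 490 to 1006 TPM. Their part in the differences was not tested.

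The ΔN and TA forms, whose first coding bases are given above, had unequal shares. TA transcripts, as the authors' estimates assign reads, made up 0 to 1.37% of Trp63 in the uninjured anus. They made up 1.14 to 2.32% on day 3, 2.09 to 2.96% on day 6, and 3.22 ± 0.922% (SD) on days 9 to 20. In the neo-epithelium they made up 5.08 ± 0.831%, with a higher share than the anus in 8 of 9 mice, though the ranges of 3.94 to 6.51% and 1.68 to 4.71% overlap. The summed TA level stayed small, at 0.713 to 3.14 TPM in the neo-epithelium. Reads were single-end, and most of a TA transcript is shared with ΔN, so these shares are estimates and were not tested.

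In the authors' estimates the Tfap2a difference fell on 1 of its 2 transcripts with values. Tfap2a-202 was 2.73 ± 1.33 TPM in the neo-epithelium and 8.07 ± 1.45 TPM in the anus, lower in 9 of 9 mice without overlap. Tfap2a-201 was 1.38 ± 0.596 TPM and 1.44 ± 0.963 TPM, higher in 5 mice and lower in 4. The first made up 84.8 ± 10.1% of Tfap2a in the anus and 62.7 ± 20.6% in the neo-epithelium, a lower share in 8 of 9 mice. GENCODE M21 lists 9 transcripts of Tfap2a, of which only these 2 have values, and the 2 share sequence after the first exon. The split between them is therefore an estimate, and these values were not tested.

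**Figure D5:**
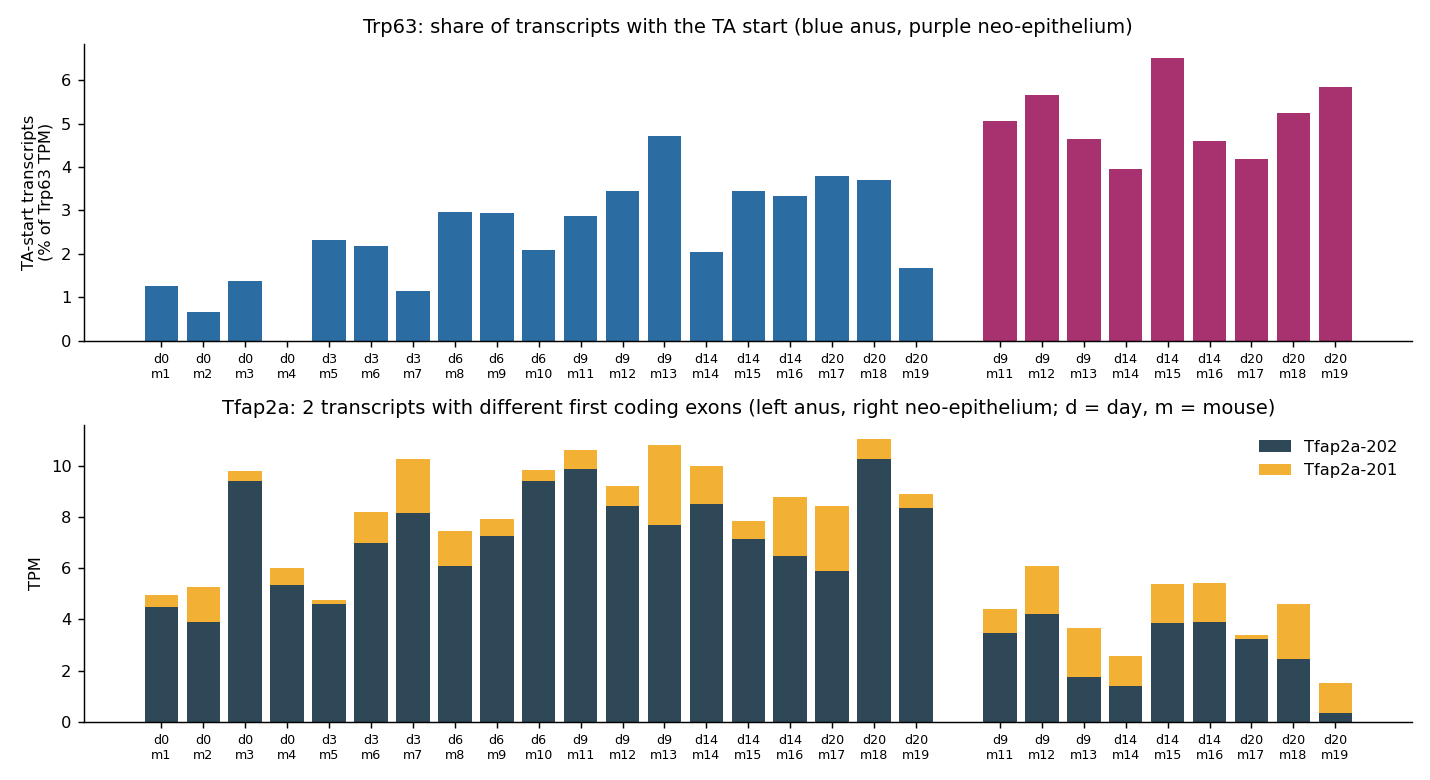
TA share of Trp63 in percent (top) and TPM of Tfap2a-202 and Tfap2a-201, stacked (bottom), 1 bar per sample of anus and neo-epithelium by day and mouse. On days 9 to 20 Tfap2a-202 is lower in the neo-epithelium in 9 of 9 mice, and the TA share is higher in 8 of 9.

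Genes linked to these factors are described by count, beside the median of all genes. Of 11 tested paralogues of the members, 6 were lower and none higher in the neo-epithelium than in the anus (median -0.85, all genes 0.18; 7 lower with TMM scaling). They included Sox7 (1.25 against 9.53 TPM) and Tfap2b, another AP-2 factor (0.00946 against 1.93 TPM). Of 15 other factors of stratified epithelium, 3 were lower and 5 higher (median 0.10, TMM -0.02), near the 19.7% and 40.1% of all genes. Gata3 (0.841 against 14.3 TPM) and Barx2 (16.8 against 43.8 TPM) were lower, and Elf3 was higher (282 against 121 TPM).

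Of 19 p63-linked basal genes, 9 were higher and 5 lower in the neo-epithelium than in the anus (median 0.06), near the 40.1% and 19.7% of all genes. With TMM scaling 8 were lower and the median turned to -0.07. Among the higher ones were the laminin chains Lama3 (64.4 against 14.5 TPM) and Lamb3 (67.5 against 17.1 TPM), which anchor basal cells to the basement membrane. Against the rectum, 13 of the 19 were higher and 2 lower (median 1.61, all genes 0.00), led by the basal keratins Krt5 (2290 against 59.2 TPM), Krt14 (7585 against 163 TPM) and Krt15 (284 against 5.25 TPM). Krt5 and Krt14 are also squamous markers.

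Of 12 Grhl3-linked barrier genes, 8 were lower and 1 higher, or 0 with TMM scaling, in the neo-epithelium than in the anus (median -2.33), while Grhl3 itself was not called. Krt1, Flg and Krt10, which build the cornified layer of skin, were 19.6 against 1163 TPM, 19.0 against 562 TPM and 49.8 against 1306 TPM. Against the rectum 7 of 8 tested barrier genes were higher, led by Krt4 (1525 against 5.77 TPM) and Krt13 (7373 against 68.9 TPM), keratins of non-cornified squamous linings. Krt4 and Krt13 are also squamous markers. All 9 intestinal factors were lower in the neo-epithelium than in the rectum, such as Hnf4a (30.8 against 132 TPM). Against the anus the 4 that could be tested were higher, where 40.1% of all genes were. Colonocyte markers were higher there too, 5 of 5 tested with TMM scaling, and their part was not tested.

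In the rectum on day 9, when 33.5% of all genes rose, 3 of 7 tested barrier genes rose and 1 fell, or 2 with TMM scaling (median 0.60, all genes 0.13), a share near that of all genes. Tgm1, which cross-links the cornified envelope, went from 0.605 to 8.61 TPM and Sprr1a, an envelope precursor, from 18.8 to 84.3 TPM, while Tgm3 fell from 583 to 45.0 TPM. On day 6 none of 7 rose and 3 fell (median -1.03, all genes -0.27). Of the p63-linked genes 9 of 17 rose and 3 fell on day 9, or 4 with TMM scaling (median 0.53). Those that rose included Krt5 (5.59 to 54.5 TPM) and Dsg3 (0.251 to 7.49 TPM). Both are among the squamous markers, whose sum of up to 587 TPM therefore includes them.

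The members followed each other across the 21 group means to different degrees, as Pearson correlations of log2(TPM + 1). They ranged from 0.770 for Sox2 and Tfap2c to 0.996 for Trp63 and Sox15, and the 2 AP-2 factors had 0.978. These are descriptions of groups that share mice and the step between colonic and squamous sections. Outside the members, the genes most like Trp63 among 13563 included Adgrf4 (0.998) and Fam83a (0.997), and Fam83a was also most like Sox15 (0.997), with Serpinb10 and Dlk2 (0.994 each). Those most like Sox2 were Tmprss11e (0.995), Ankk1 and Upk3bl (0.993 each), and those most like Pitx1 were Bcam (0.989), Aqp3 and Slc39a6 (0.986 each). Tfap2a was closest to Duox1 (0.998), Notch3 (0.996) and Foxc1 (0.995), Tfap2c to Psapl1 (0.996), Hal and Klc3 (0.995 each), and Grhl3 to Plscr3 (0.988), Gna15 and Tgm1 (0.986 each).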

How the data were processed

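The deposited table gives transcript abundances in TPM, estimated by the authors with kallisto after CASAVA on mm10, per the submitters' processing notes. It has 126860 rows. Rows without values (37344) and repeated rows (1318) were dropped, leaving 88198 transcripts, which were summed to 30452 genes. Rows that name no gene held 0.563 to 2.83% of the TPM. Single-cell samples were not used here.

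Each comparison was fitted with limma 3.58.1 (R 4.3.3, moderated by mean trend) on log2(TPM + 1) over all genes that reached 1 TPM in enough samples to fill the smaller group, with Benjamini-Hochberg adjustment and a call at 0.05. A gene near 0 in 1 group can pass this filter through the other group alone. Every member but Pitx1 did so for anus against rectum on day 0. The test was checked on simulated data. Ratios to Trp63 were tested in scipy 1.17.1. Other settings were TMM scaling, a pseudocount of 0.1, a filter of 5 TPM or none, single days, a mouse block and each mouse left out.

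Mouse numbers pair the sections of 1 animal. Deviations of same-numbered samples correlated by 0.0539 on average (anus and rectum, day 0), 0.137 (rectum and mid-colon), 0.269 (neo-epithelium and rectum) and 0.161 (neo-epithelium and anus).

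The text names all members, up to 3 called genes with the largest difference per list and comparison, and the 3 genes most like each member; some genes the rule names are not reported here. Members and lists were chosen with earlier results of these data known.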

Additional observations from a re-analysis of the deposited data

Results flagged for a closer look

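In 3 of 18 sets of 4 uninjured samples, each 1 factor in 1 section, 1 sample lay apart from the other 3 by more than Dixon's test allows at the 95% level, which chance alone does in about 1 of 20 groups. Pitx1 in the mid-colon was 1.65 TPM in mouse 3 and 1.12 to 1.20 TPM in the others. Tfap2a in the rectum was 0.137 TPM in mouse 1 and 0.305 to 0.329 TPM in the others. Grhl3 in the rectum was 0.945 TPM in mouse 3 and 0.330 to 0.359 TPM in the others.

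Sox15 was higher in the neo-epithelium than in the anus in all 3 mice of day 9, by 5.80 TPM on average, and lower in all 3 mice of day 20, by -8.32 TPM. The difference between the days was not tested.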

How the results depend on the processing

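The count of members called was 7 for anus against rectum, 3 across rectal days, 4 across anal days, 6 for neo-epithelium against rectum, 4 for neo-epithelium against anus and 2 for neo-epithelium over time. It was 0 for rectum against mid-colon, for mid-colonic days and for the day 9 response, where only Pitx1 and, for the last, Grhl3 could be tested. TMM scaling gave 1 in the mid-colon and 0 for the neo-epithelium over time. Dropping the filter gave 1 in the mid-colon and 1 over time, a pseudocount of 0.1 gave 1 over time, and a filter of 5 TPM left 0 in the rectum. All anal groups in 1 fit gave 9 calls. Day 14 alone and day 20 alone each gave 2 for neo-epithelium against anus, and without day 20, an alternative chosen after seeing the data, the count was 4. Leaving out each mouse gave 2 to 6 in the rectum, 1 to 4 in the anus, 0 to 4 over time, 6 to 7 against the rectum, 3 to 4 against the anus and 4 to 5 for the ratios. Part of the gains in the rectum came from members that passed the filter only with that mouse left out.

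With the mouse as a replicate block, rectum against mid-colon gave 1 call, Pitx1. The block changed no other call (neo-epithelium against anus, adjusted p = 0.140 for Trp63, 0.0327 for Sox2 and 0.0188 for Pitx1).

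Against the anus, Grhl3 turned to -0.078 with TMM scaling, -0.18 on day 20 alone and -0.045 without mouse 15. Sox15 turned to 0.24 on day 9 alone, 0.12 without day 20 and 0.010 without mouse 19 (lowest with 1 mouse left out -0.14, without mouse 11), and Trp63 to 0.027 on day 14 alone. The cause was not tested, and none of these was called in either direction. Of the other settings for single genes, 185 kept direction and side of the threshold, 10 lost the call and 1 gained it. With 1 mouse left out, 223 kept it, 32 lost and 3 gained it. TMM scaling moved the median of all genes by 0.21 for rectum against mid-colon and rectal day 6, 0.19 for mid-colonic day 6, 0.15 for rectal day 9, 0.13 for neo-epithelial day 20, 0.12 for mid-colonic day 3, 0.11 for neo-epithelium against anus and 0.10 for mid-colonic day 9. Depth is unknown, so levels under 1 TPM carry no stated precision.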
